A study of Mus musculus with 10 samples.

Results

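The vesicular glutamate transporters are 3 genes of 27933 in a count table of single retinal cells: Slc17a7 (VGLUT1), Slc17a6 (VGLUT2) and Slc17a8 (VGLUT3). They were taken by name from the table. The cells came from retinas of postnatal day 19 mice of a transgenic strain with Cre and GFP. The sort kept live cells without GFP and without CD133 and CD73, surface proteins of photoreceptors, and so enriched amacrine cells. All 10 libraries share this age, strain and sort. Batch 3 holds 4 libraries, batch 2 holds 5 and batch 1 holds 1, and the labels do not say which libraries came from separate animals. The p-values thus rest on how libraries vary, and this variation may be technical.

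Vesicular glutamate transporters pump glutamate into synaptic vesicles, so a neuron that makes one can release glutamate. In the retina, photoreceptors and bipolar cells are known for VGLUT1, ganglion cells for VGLUT2 and one type of amacrine cell for VGLUT3. Most amacrine cells are inhibitory: they make GABA with the enzymes of Gad1 and Gad2 or take up glycine with the transporter of Slc6a9, and both kinds load vesicles with the transporter of Slc32a1. The VGLUT3 amacrine cell is known to release both glutamate and glycine.

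The 3 genes are placed here in GENCODE M21 on GRCm38. Slc17a6 lies at chr7:51622006-51671119 on the plus strand and overlaps Gm45072 on the same strand. Slc17a7 lies at chr7:45163949-45176142 on the plus strand and overlaps Mir7055 on the same strand. Slc17a8 lies at chr10:89574020-89621253 on the minus strand and overlaps no other annotated gene. Reads of an overlapping gene on the same strand could be counted to either. The 250 bases upstream of each RefSeq start (GRCm38.p6) are shown because the 3 genes differed in their levels over clusters of cells. The windows are chr7:51621580-51621829 (plus), chr7:45163671-45163920 (plus) and chr10:89621250-89621499 (minus), all in lower case because no searched motif was found in them.
Slc17a6: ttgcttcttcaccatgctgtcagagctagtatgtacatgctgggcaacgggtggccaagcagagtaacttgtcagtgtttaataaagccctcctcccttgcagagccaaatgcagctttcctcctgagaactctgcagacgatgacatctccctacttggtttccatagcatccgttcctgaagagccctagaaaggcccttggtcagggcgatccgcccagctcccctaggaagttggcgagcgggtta
Slc17a7: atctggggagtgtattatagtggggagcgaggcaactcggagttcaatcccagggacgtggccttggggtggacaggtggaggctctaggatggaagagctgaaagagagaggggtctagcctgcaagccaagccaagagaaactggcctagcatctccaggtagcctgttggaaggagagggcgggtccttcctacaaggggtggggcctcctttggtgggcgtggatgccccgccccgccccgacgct
Slc17a8: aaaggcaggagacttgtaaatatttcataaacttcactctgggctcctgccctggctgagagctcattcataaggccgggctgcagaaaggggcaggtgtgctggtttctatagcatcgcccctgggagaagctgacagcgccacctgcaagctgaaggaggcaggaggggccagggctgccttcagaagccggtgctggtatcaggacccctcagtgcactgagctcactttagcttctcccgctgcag
Of their bases, 53.2%, 61.2% and 57.2% were G or C, against a median of 52.4% over 32851 promoter windows. On both strands, none held the box motif TATAAA, the basic helix-loop-helix motif CAGCTG, the CRX and OTX2 motif TAATCC or the homeodomain motif TAATTA. These are in 12.4%, 13.0%, 6.25% and 4.84% of all promoters, whose windows also hold the first 50 bases after the start. A missing match says only that these letters are not in these windows.

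The table holds 32523 cells and 171257947 unique molecular identifiers (UMIs, each counted as 1 captured RNA molecule), with 950 to 4738 cells and 6302659 to 26028492 UMIs per library. The median cell had 3296.5 to 5717 UMIs. Libraries 5 and 6 stand apart: 312 cell barcodes occur in both, which is 7.0% of the smaller library. In 48.7% of these pairs the cells fell into the same cluster, where cluster sizes alone give 2.07%, and the deeper cell of a pair had a median of 6.79 times the UMIs of the other. Libraries 2 and 3 share 59 barcodes, 13.6% of them in the same cluster, and every other pair of libraries shares 3 to 32. In all, 1860 cells (5.72%) carry a barcode found in another library. Results that rest on them are also given without them.

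Cells were gated by transmitter genes. The neither gate holds cells with no UMI of Gad1, Gad2 and Slc6a9 and at least 4000 UMIs. It took 78 cells (0.240%), 4 to 14 per library, and only libraries 2, 4, 6 and 7 gave the 10 cells needed for a level. The Slc6a9 gate, with at least 2 Slc6a9 UMIs and no Gad UMI, took 4556 cells (14.0%). The Gad gate, with at least 2 Gad UMIs and no Slc6a9 UMI, took 16415 cells (50.5%). The median cell had 4795.5 UMIs in the neither gate, 3664 in the Slc6a9 gate and 5411 in the Gad gate. Amacrine markers marked all 3 gates: at least 3 of 10 were detected in 97.4% of the neither cells, 98.1% of the Slc6a9 cells and 99.6% of the Gad cells, although the neither rule itself sets 3 of the 10 to 0.

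The 3 transporters differed in how their molecules were spread over cells. Slc17a8 was found in 879 cells (2.70%), and 666 of them had at least 2 UMIs. Those 666 cells, with up to 28 UMIs each, held 95.5% of all Slc17a8 UMIs. Their median depth was 4841 UMIs, against 4100 in the 30093 cells with none of the transporters. Slc17a7 was found in 1216 cells (3.74%), and 77.7% of these had a single UMI. The 271 cells with at least 2 Slc17a7 UMIs had a median depth of 12269 UMIs. Slc17a6 was found in 459 cells (1.41%), of which 95.6% had a single UMI, and the 20 cells with at least 2 had a median depth of 11148. Slc17a8 was thus concentrated in few cells of ordinary depth, and repeated Slc17a7 and Slc17a6 molecules lay in deep cells. Over all cells, the lowest, median and highest library had 19.7, 28.1 and 37.9 CPM (a gene's count scaled to the summed UMIs of the same cells) of Slc17a8, 5.83, 10.2 and 14.9 CPM of Slc17a7, and 1.24, 2.57 and 4.63 CPM of Slc17a6.

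Slc17a8, the VGLUT3 gene, was highest in the neither gate, next in the Slc6a9 gate and lowest in the Gad gate. In the neither gate its level was 552, 362, 253 and 1005 CPM in libraries 2, 4, 6 and 7. Of the libraries with too few cells for a level, 5 and 10 had 1051 and 592 CPM. Libraries 1, 3, 8 and 9, with 4 to 8 cells each, had no Slc17a8 UMI, which at 3 counts allows up to 63.1 to 167 CPM. Pooled over all 78 neither cells the level was 424 CPM. In the Slc6a9 gate the lowest, median and highest library had 50.6, 84.1 and 263 CPM, and in the Gad gate 0.795, 3.93 and 5.28 CPM. Every library of the Slc6a9 gate was above every library of the Gad gate, whereas the neither value of library 6 (253 CPM) lay just under the highest Slc6a9 value, that of library 1 (263 CPM). The means were 543 ± 332 CPM in the neither gate (SD, n = 4), 101 ± 63 CPM in Slc6a9-gated cells and 3.64 ± 1.34 CPM in Gad-gated cells (SD, n = 10 each). Summed counts per library and gate were tested with edgeR's quasi-likelihood test and Benjamini-Hochberg adjustment over 11612 genes, with library as a block. The log2 difference was 4.59 ± 0.19 (SE) for the Slc6a9 gate minus the Gad gate, with an adjusted p of 8.24e-19, where 61.5% of all genes were called. It was 6.70 ± 0.50 for neither minus Gad (adjusted p = 2.23e-10, edgeR), where 5.78% were called. It was 2.11 ± 0.38 for neither minus Slc6a9 (adjusted p = 0.000442, edgeR), where 5.62% were called (1.58% higher and 4.05% lower). Without shared barcodes the 3 differences were 4.67, 6.85 and 2.18. The difference between neither and Slc6a9 lost its call when the neither gate opened at 2000 UMIs (0.28, adjusted p = 0.565, edgeR).

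**Figure D1:**
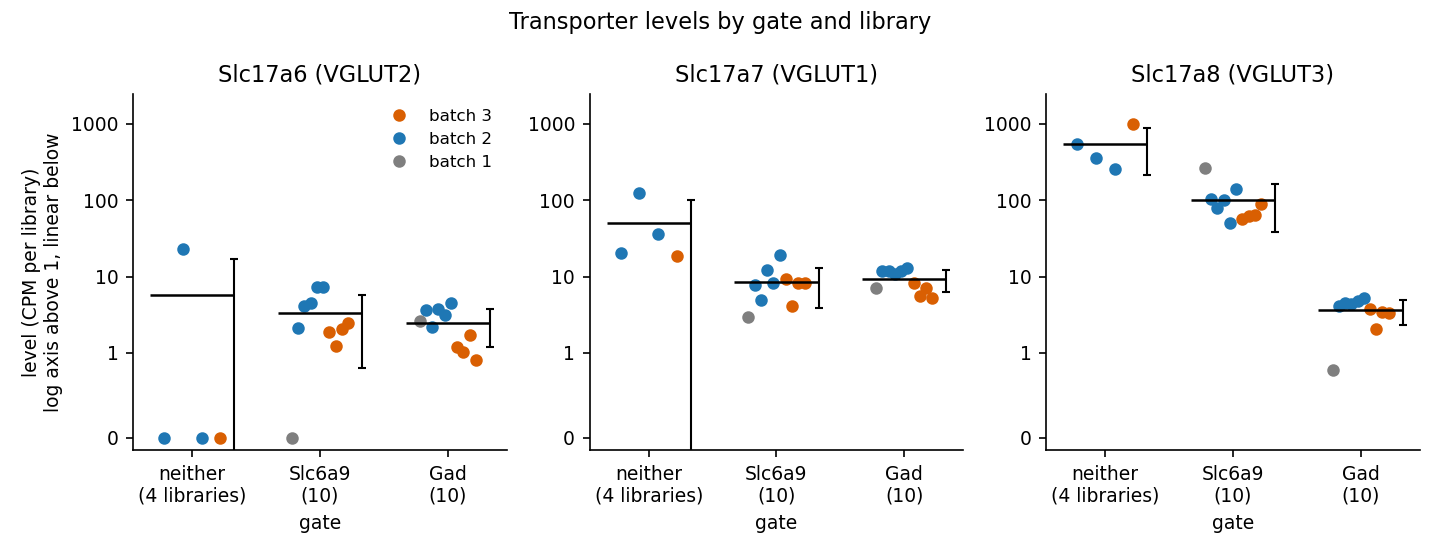
Level of each transporter in the neither, Slc6a9 and Gad gates, in CPM on an axis that is logarithmic above 1 and linear below; points are libraries coloured by batch, horizontal lines are means and vertical bars are 1 SD. Slc17a8 averaged 543 CPM in the neither gate, 101 CPM in Slc6a9-gated cells and 3.64 CPM in Gad-gated cells, while the Slc6a9 and Gad gates overlapped for Slc17a6 and Slc17a7.

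The share of cells with a Slc17a8 UMI followed the same order. It was 25.6% in the neither gate (20 of 78 cells, exact 95% binomial interval 16.4% to 36.8%), 4.85% in the Slc6a9 gate and 0.798% in the Gad gate. Intervals of this kind cover counting error only. Starburst amacrine cells (Chat plus Slc18a3 at least 2 UMIs, 651 cells, median depth 7462) should lack the transporters, and 1.84% of them had a Slc17a8 UMI. The share in the Gad gate was below this. The starburst share sets no clean background, since 7 of the 12 starburst cells with Slc17a8 had at least 2 UMIs and 505 of the 651 starburst cells are also in the Gad gate, so no presence or absence is read from it. After each cell was thinned to 3000 UMIs, which left out 0, 1561 and 4009 shallower cells of the neither, Slc6a9 and Gad gates, the shares were 25.6%, 5.31% and 0.540%, against 1.13% in starburst cells.

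Slc17a7, the VGLUT1 gene, had 20.4, 124, 36.1 and 18.6 CPM in the neither gate of libraries 2, 4, 6 and 7. The lowest, median and highest library had 2.94, 8.21 and 19.0 CPM in Slc6a9-gated cells and 5.18, 9.46 and 12.8 CPM in Gad-gated cells. The neither gate rested on 19 UMIs in 9 cells, and library 4 held 11 of these UMIs. Its lowest library, 18.6 CPM, lay within the range of the Slc6a9 gate and above that of the Gad gate. Slc17a7 rose in the neither gate by a log2 difference of 2.19 ± 0.57 over the Gad gate (adjusted p = 0.0170, edgeR) and 2.16 ± 0.58 over the Slc6a9 gate (adjusted p = 0.0220, edgeR). Between the Slc6a9 and Gad gates the difference was 0.02 ± 0.17 (adjusted p = 0.915, edgeR). Without library 4 the neither differences were 0.92 over Gad (adjusted p = 0.676) and 0.97 over Slc6a9 (adjusted p = 0.698, edgeR for both).

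Bipolar markers moved with Slc17a7 in the neither gate. At least 3 of 11 were detected in 20.5% of neither cells, 4.35% of Slc6a9 cells and 6.68% of Gad cells, and 7 of the 9 neither cells with Slc17a7 were among them. Their summed level ran from 164 to 1899 CPM over the neither libraries, from 212 to 396 CPM in Slc6a9-gated cells and from 212 to 316 CPM in Gad-gated cells, with none of the 11 at 0 in the neither gate. Without cells with at least 3 bipolar markers, the neither differences of Slc17a7 were 0.65 over Gad (adjusted p = 0.900) and 0.38 over Slc6a9 (adjusted p = 0.937, edgeR for both). Those of Slc17a8 were then 6.44 (adjusted p = 2.03e-06) and 1.96 (adjusted p = 0.0427, edgeR for both).

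Slc17a7 was detected in 11.5% of neither cells, 2.63% of Slc6a9 cells, 3.75% of Gad cells and 7.22% of starburst cells. The shares in the Slc6a9 and Gad gates were below that of starburst cells, of which 17 had at least 2 UMIs, so that this share sets no clean background either. After thinning they were 8.97%, 2.0%, 2.18% and 4.14%.

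Slc17a6, the VGLUT2 gene, was near the limit of detection in all gates. In the neither gate it was found in 3 of 78 cells. Library 4 had 22.6 CPM, and libraries 2, 6 and 7 had no UMI, which at 3 counts allows up to 54.2 to 61.3 CPM. The lowest, median and highest library had 0, 2.30 and 7.35 CPM in Slc6a9-gated cells and 0.920, 2.41 and 4.50 CPM in Gad-gated cells, and the gates overlapped. The log2 difference was 0.56 ± 0.25 for Slc6a9 minus Gad (adjusted p = 0.0542, edgeR). It passed the threshold without library 1 (0.61, adjusted p = 0.0301), without library 2 (0.66, adjusted p = 0.0332) and without shared barcodes (0.59, adjusted p = 0.0443, edgeR for all 3). The shares of cells with a UMI, 3.85% in the neither gate, 1.14% in the Slc6a9 gate, 1.44% in the Gad gate and 1.69% in starburst cells, rested on single UMIs in nearly all cells. After thinning they were 1.28%, 0.868%, 0.677% and 0.188%, the last from 1 of 532 starburst cells (exact 95% interval up to 1.04%), which turns the order between starburst cells and the Slc6a9 and Gad gates. The fitted neither differences, 1.09 ± 1.21 over Gad and 0.53 ± 1.16 over Slc6a9, were not called (adjusted p = 0.718 and 0.873, edgeR).

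Most cells with repeated Slc17a8 molecules lay outside the pure gates. Of the 666 cells with at least 2 UMIs, 34.2% had both Gad and Slc6a9 UMIs, 28.5% were in the Slc6a9 gate, 13.7% had a single Slc6a9 UMI, 9.61% had no UMI of the 3 gate genes and under 4000 UMIs in all, 8.41% were in the Gad gate, 2.85% were in the neither gate and 2.70% had a single Gad UMI. Within them the median Slc17a8 level was 1950 CPM in the neither gate, 1423 CPM in the Slc6a9 gate, 762 CPM in cells with both and 729 CPM in Gad-gated cells. Of the 271 cells with repeated Slc17a7, 47.2% were in the Gad gate and 44.3% had both Gad and Slc6a9. A further 4.43% were in the Slc6a9 gate and 1.48% in the neither gate. The Slc17a7 cells with both had a median depth of 16847 UMIs. Of the 20 cells with repeated Slc17a6, 12 were in the Gad gate and 5 had both. Of all cells, 50.5% were in the Gad gate, 20.3% had both, 14.0% were in the Slc6a9 gate and 0.240% in the neither gate.

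**Figure D2:**
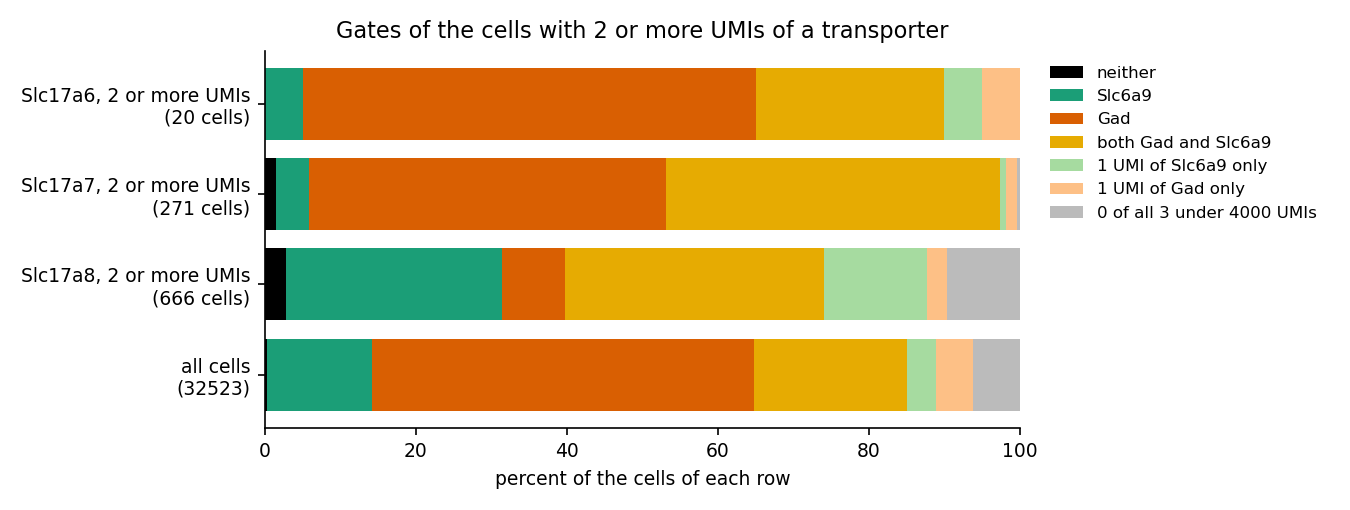
Share of cells, in percent, in each gate or category, for cells with at least 2 UMIs of each transporter and for all cells. Slc17a8 cells were 28.5% Slc6a9-gated and 8.41% Gad-gated, while Slc17a7 cells were 47.2% Gad-gated. All cells were 14.0% Slc6a9-gated and 50.5% Gad-gated.

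The cells were clustered without the 3 transporters among the features, giving 68 clusters, and the levels over them are a description. Slc17a8 was concentrated in cluster 12, with 712 cells, 1.67% to 2.60% of each library. Its leading genes included Car3 (a carbonic anhydrase), Nxph1 (a secreted neurexin ligand), Dhrs3 (a retinoid reductase) and Lhx2 (a homeodomain factor). Inside the cluster the lowest, median and highest library had 822, 1222 and 1532 CPM of Slc17a8. The mean was 1202 ± 234 CPM inside and 2.86 ± 1.69 CPM outside (SD, n = 10 libraries each). The cluster held 88.9% of all Slc17a8 UMIs and 589 of the 666 cells with at least 2, and 94.1% of its cells had a UMI. The next clusters had 18.8 and 13.8 CPM, the median cluster 2.24 CPM, and 10 clusters had none.

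Most Slc17a8 of the neither and Slc6a9 gates, and part of that of the Gad gate, lay in cluster 12. In the neither gate, 20 of 78 cells were in it, with 1660 CPM pooled, and the 58 cells outside had no Slc17a8 UMI, which at 3 counts allows up to 9.76 CPM. In the Slc6a9 gate, 210 cells were in it with 1488 CPM, and the cells outside had 1.52 CPM. In the Gad gate, 48 cells were in it with 626 CPM, and the cells outside had 1.82 CPM. There 131 cells had a Slc17a8 UMI, and of the 56 with at least 2, 33 were in the cluster and 23 outside. Among cells with both Gad and Slc6a9 UMIs, 202 were in it with 810 CPM, against 6.70 CPM outside. The share of a gate in cluster 12 was 25.6% for neither, 4.61% for Slc6a9 and 0.292% for Gad, the same order as the Slc17a8 level. Over libraries this share ran from 0 to 63.6% in the neither gate, where 4 of 10 libraries had no Slc17a8 UMI, from 2.85% to 12.1% in the Slc6a9 gate and from 0 to 0.547% in the Gad gate. Outside the cluster, all 3 gates were at or under 1.82 CPM pooled.

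Within cluster 12 the gate genes were mixed. Slc6a9 was detected in 73.5% of the cells and averaged 447 ± 117 CPM inside, against 305 ± 133 CPM outside. Gad1 was detected in 33% and averaged 269 ± 130 CPM inside, against 929 ± 145 CPM outside, and Gad2 averaged 92.5 ± 52.9 CPM inside, against 250 ± 23.6 CPM outside. Slc32a1 averaged 646 ± 109 CPM inside and 649 ± 53.7 CPM outside (SD, n = 10 libraries each), a difference smaller than the spread. Slc17a7 averaged 29.9 ± 16.2 CPM inside and 9.61 ± 3.49 CPM outside.

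Slc17a7 was highest in cluster 63, with 126 cells and 235 CPM pooled, and 61.1% of its cells had a UMI. That cluster carried 10 of the 11 bipolar markers at 2.5 times the level elsewhere or more, so its cells went against the amacrine label of the sort, although they also had 1071 CPM of Gad1 plus Gad2. With clusters at resolution 1 in place of 3, the highest Slc17a7 cluster had 49.4 CPM in 908 cells led by Cartpt, a cluster that did not meet the rule for markers of another class. Cluster 31, with 444 cells led by Gsg1, Rnf152, Pcp2, Prox1, Gng13 and Gngt1, had 63 CPM, cluster 12 had 35.6 CPM and the median cluster 7.17 CPM. Slc17a6 reached 8.55 CPM at most (cluster 28, 8 UMIs), against a median of 2.72 CPM, and no cluster had 5 times the median.

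**Figure D3:**
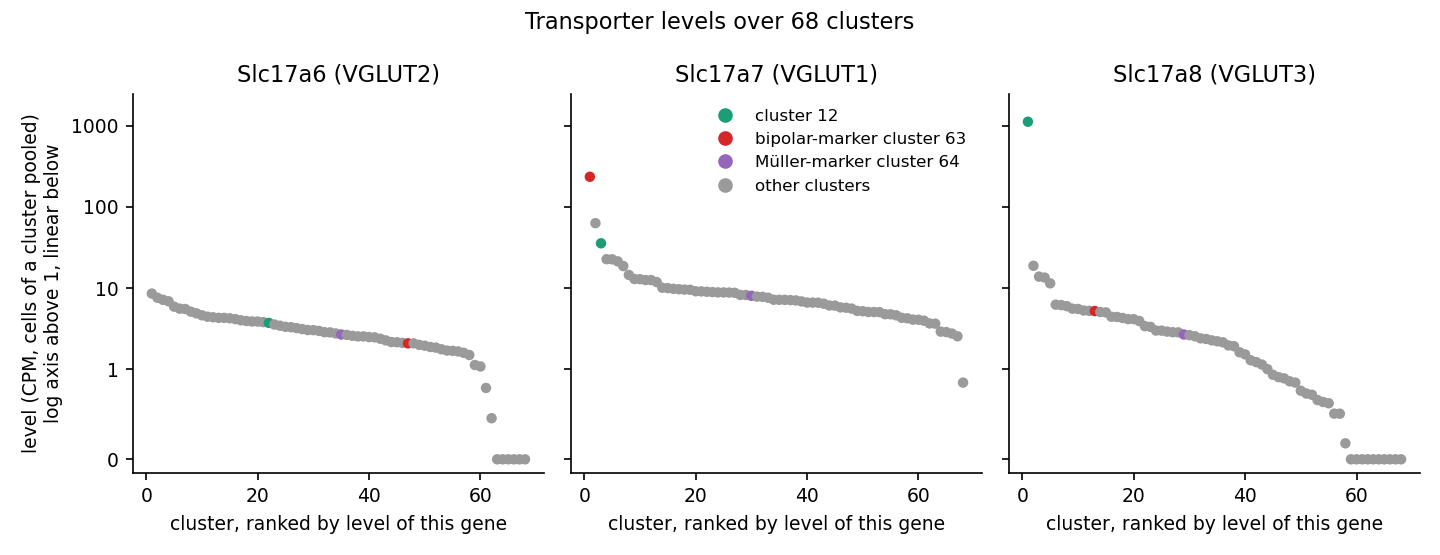
Level of each transporter in each of the 68 clusters, in CPM of the pooled cells on an axis that is logarithmic above 1 and linear below, with 1 point per cluster ordered from highest to lowest in each panel. Slc17a8 stood at 1122 CPM in its highest cluster and 18.8 CPM in the next, Slc17a7 at 235 and 63 CPM, and Slc17a6 did not exceed 8.55 CPM.

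Over 67 clusters and 6927 genes, the genes whose cluster levels followed Slc17a8 most closely were Nxph1 (Pearson's r = 0.92), Slc16a14 (0.90) and Plpp4 (0.87). Among the genes that followed Slc17a7 most closely were the bipolar genes Otx2 (0.91), Lhx4 and Grm6 (0.90 each). For Slc17a6 the closest was Taf6 (0.59). The clusters share libraries and depth, and these correlations are descriptions.

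Co-detection with Slc32a1, the vesicular transporter of GABA and glycine, was high for all 3 genes. In the neither gate every cell with a transporter also had a Slc32a1 UMI: 20 of 20 for Slc17a8 (exact 95% interval from 83.2%), 9 of 9 for Slc17a7 (from 66.4%) and 3 of 3 for Slc17a6 (from 29.2%). Of the neither cells without Slc17a8, 91.4% had a Slc32a1 UMI. Too few libraries had 5 such cells for a test there. In the Slc6a9 gate, Slc32a1 was detected in 90.5% ± 7.49 of cells with Slc17a8 and in 87.5% ± 3.97 of cells without it after standardising to the same depth (SD, n = 10 libraries). The difference was 3.0 ± 7.95 percentage points, higher in 6 of 10 libraries. In the Gad gate the shares were 91.5% with Slc17a8 and 93.9% without (n = 9). Over 6 pairs of gene and gate, an exact two-sided sign-flip test over libraries gave adjusted p-values of 0.645 to 0.662, where a single pair of 10 libraries could reach 0.00195 unadjusted. None of the 6 differences exceeded the spread between libraries. The widest was Slc17a6 in the Slc6a9 gate, with 72.6% ± 21.8 of cells with it and 84.8% ± 2.13 of cells without it over 6 libraries.

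The level of Slc32a1 itself was 593 ± 120 CPM in the neither gate (n = 4), 608 ± 73.5 CPM in Slc6a9-gated cells and 665 ± 54.3 CPM in Gad-gated cells (SD, n = 10 each). It fell in the Slc6a9 gate relative to the Gad gate by 0.08 on the log2 scale (adjusted p = 0.0347, edgeR). Leaving out 1 library gave falls of 0.10 to 0.14, the widest without library 7, and without the library block the call ended (adjusted p = 0.349, edgeR). Its neither minus Gad difference was -0.41 (adjusted p = 0.0221, edgeR), where the median of all genes was -0.27. With size factors of the DESeq2 kind that median was -0.06, and the Slc32a1 difference was -0.19 and no longer called (adjusted p = 0.548, edgeR). It also lost its call when any of libraries 1, 3, 4, 6, 7, 8, 9 and 10 was left out, with -0.24 without library 4 (adjusted p = 0.421, edgeR) and -0.37 to -0.42 without the others.

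Of the genes that supply and clear glutamate, Slc1a3, a glutamate uptake transporter known in retina from Müller glia, was higher in the neither and Slc6a9 gates than in the Gad gate. It averaged 150 ± 53.4 CPM in the neither gate, 83.3 ± 14.8 CPM in Slc6a9-gated cells and 3.4 ± 0.74 CPM in Gad-gated cells, with log2 differences of 5.19 and 4.61 over Gad. The neither minus Slc6a9 difference of Slc1a3 was 0.59 ± 0.26 and not called (adjusted p = 0.218, edgeR). Of 17 tested genes of this list, 4 rose and 8 fell in the Slc6a9 gate relative to Gad, with a median log2 difference of -0.08, against 0.06 over all genes and 35.0% called higher and 26.5% lower. These shares of all genes, 4062 higher and 3074 lower, differed from those of most other fits. Leaving out 1 library, whichever it was, gave 3304 to 3543 higher and 3139 to 3408 lower. With no library left out, gates at 3 UMIs gave 3401 higher and 3270 lower. Size factors of the DESeq2 kind gave 3900 and 3177, and leaving out clusters of another class gave 4095 and 3068. The cause of this difference was not tested. In the neither gate relative to Gad, 1 rose (Slc1a3) and 2 fell (Got1 and Glul, the glutamine synthetase), where 1.14% and 4.64% of all genes did. Of 6 tested markers of Müller glia, Slc1a3, Rlbp1 and Apoe rose and Glul, Dkk3 and Clu fell in the Slc6a9 gate relative to Gad, and in the neither gate Slc1a3 rose and the same 3 fell. Of 8 vesicular transporters and vesicle proteins, 1 rose and 6 fell in the Slc6a9 gate relative to Gad, and 1 rose and 2 fell in the neither gate. The gene that rose in both was Sv2b, a synaptic vesicle protein. The monoamine transporter Slc18a2 and the acetylcholine transporter Slc18a3 fell by 5.61 and 2.96 on the log2 scale in the Slc6a9 gate, where Sv2c, Slc10a4, Sv2a and Slc32a1 also fell, and Sv2a and Slc32a1 fell in the neither gate. Sv2b averaged 55.3 ± 13.7 CPM in the neither gate, 88.1 ± 14.3 CPM in Slc6a9-gated cells and 6.64 ± 2.06 CPM in Gad-gated cells. Of 19 genes of the release machinery, 3 rose and 14 fell in the Slc6a9 gate relative to Gad, and 0 rose and 7 fell in the neither gate, with a median log2 difference of -0.56 for the neither gate, against -0.27 over all genes. How many genes fell there depended on the scaling: 539 of all genes were called lower in the neither gate than in the Gad gate with the scaling used, and 150 with size factors of the DESeq2 kind. Cplx3, a complexin known from retinal synapses, averaged 909 ± 267 CPM in the neither gate, 2780 ± 718 CPM in Slc6a9-gated cells and 1238 ± 191 CPM in Gad-gated cells.

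Cells with at least 2 Slc17a8 UMIs were then compared with cells with none of the 3 transporters, in all 10 libraries, and 25.6% of 11325 genes were called (1309 higher and 1589 lower). Nxph1 averaged 473 ± 131 CPM with Slc17a8 and 1.67 ± 0.57 CPM without, a log2 difference of 7.96. Car3 averaged 1349 ± 458 CPM with and 29.7 ± 4.53 CPM without (5.41). Gm14062, Plpp4 (a phospholipid phosphatase), Ntsr1 (a neurotensin receptor), Asgr1, Bnc2 and Dhrs3 were the other genes named for the largest rises, by log2 differences of 5.20 to 6.19. Tac2, the gene of neurokinin B, fell most among the genes named, with 15.9 ± 14.8 CPM with Slc17a8 and 174 ± 24.1 CPM without. B3gat2, Dact2 and Ptgds fell by 1.76 to 1.83 on the log2 scale. All 12 moved the same way in 10 of 10 libraries, which was a condition for naming them and not a result.

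The inhibitory transmitter genes of Slc17a8 cells moved apart. Gad1 fell, with 334 ± 151 CPM with Slc17a8 and 934 ± 148 CPM without, and Gad2 fell, with 112 ± 52.6 CPM with and 250 ± 25 CPM without. Slc6a9 rose, with 413 ± 128 CPM with and 310 ± 135 CPM without, higher in 8 of 10 libraries. Slc32a1 had 629 ± 105 CPM with and 654 ± 53.3 CPM without, a log2 difference of -0.08 ± 0.05 (adjusted p = 0.235, edgeR). Slc1a3 rose to 211 ± 59.6 CPM with Slc17a8, against 17.5 ± 4.59 CPM without, and Sv2b to 93.7 ± 24.4 CPM, against 22.4 ± 4.49 CPM. Of 16 glutamate supply and uptake genes 3 rose and 4 fell, where 11.6% and 14.0% of all genes did. Of 18 release genes 2 rose, Stx1a and Snap25, and 9 fell, among them the complexins Cplx1, Cplx2 and Cplx3.

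Bipolar markers also rose with Slc17a8. All 11 were higher, with a summed level of 305 to 1028 CPM per library with Slc17a8 and 223 to 263 CPM without, and at least 3 were detected in 15.9% of the 666 cells and 5.16% of the cells without. Of the Müller glia list, Slc1a3 rose, Apoe, Dkk3 and Clu fell, and the summed level was 859 to 1105 CPM with Slc17a8 and 1002 to 1195 CPM without. Without cells with at least 3 bipolar markers, 560 cells with Slc17a8 remained and 2603 genes were called.

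Cells with at least 2 Slc17a7 UMIs carried bipolar genes. At least 3 bipolar markers were detected in 246 of 271 (90.8%), against 5.16% of cells with no transporter, and their summed level was 1589 to 2388 CPM, against 223 to 263 CPM. Photoreceptor markers moved with them: the summed level was 224 to 599 CPM for 10 rod markers, against 84.0 to 149 CPM in cells with no transporter, and 172 to 434 CPM for 8 cone markers, against 97.7 to 150 CPM. At least 3 were detected in 8.12% of the Slc17a7 cells for rods and 20.3% for cones, against 0.648% and 2.12%, in cells of 12269 UMIs at the median against 4100. Of the 6 rod markers tested 1 rose (Gngt1) and of the 8 cone markers 3 rose (Opn1sw, Gnat2 and Gngt2), and the part of these cells in the result was not tested. In the 7 libraries with 10 such cells, 22.9% of 12697 genes were called (1552 higher and 1355 lower). Otx2, a homeodomain factor of photoreceptor and bipolar cells, averaged 81.2 ± 18.3 CPM with Slc17a7 and 3.74 ± 0.77 CPM without (SD, n = 7), and Lhx3, another homeodomain gene, averaged 28.2 ± 16 CPM with and 0.763 ± 0.144 CPM without. Of the 11 bipolar markers 10 rose, with a median log2 difference of 4.11, against -0.02 over all genes, and Prkca was not called. Nxph1, Lyve1, A730046J19Rik, Gsg1, Esam and Otx2os1 were the other genes named for the largest rises. Nxph1 also led the rises named for Slc17a8 cells, and 34 of the 271 cells (12.5%) had at least 2 Slc17a8 UMIs too. Their part in the Nxph1 level was not tested. Sst (somatostatin), Vip (vasoactive intestinal peptide), Crabp1 and Tpbg were named for the largest falls. Of the 10 amacrine markers 9 fell and Tfap2b rose, although all 271 cells had at least 3 of them. Slc32a1 averaged 429 ± 44.8 CPM with Slc17a7 and 649 ± 34.8 CPM without, lower in 7 of 7 libraries, with a log2 difference of -0.59 ± 0.06 (adjusted p = 4.56e-13, edgeR).

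The other glutamate genes of the Slc17a7 cells can be set beside those of the Slc17a8 cells. Slc1a2, a glutamate uptake transporter of bipolar cells and cones, rose, with 76.7 ± 25.2 CPM with Slc17a7 and 10.3 ± 1.42 CPM without. Slc1a3 had 17.2 ± 9.06 CPM with and 15.6 ± 2.71 CPM without (adjusted p = 0.821, edgeR). Of 18 glutamate genes 5 rose and 6 fell, where 12.2% and 10.7% of all genes did. Of 20 release genes 7 rose, among them Cplx4 (a complexin) and Syt2 (a calcium sensor of release), and 4 fell. The values of the 2 sets of cells stand side by side, and their difference was not tested. Both comparisons share the cells with no transporter, and 34 cells had at least 2 UMIs of both genes.

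The level of Slc17a7 depended on the number of bipolar markers in a cell. It averaged 4.61 ± 1.03, 4.97 ± 0.50 and 5.38 ± 1.06 CPM in cells with 0, 1 and 2 markers, 14.2 ± 8.98 CPM with 3 to 4, and 141 ± 34.0 CPM with 5 or more (SD, n = 10 libraries). The median depth was 3173.5 UMIs with no marker and 10707.5 UMIs with 5 or more. Slc17a8 overlapped this set in part: 34 cells had at least 2 UMIs of both genes, 33 of them had at least 3 bipolar markers, their median depth was 10284 UMIs, and 12 were in library 4. Among the 560 Slc17a8 cells with fewer than 3 bipolar markers, 1 had at least 2 Slc17a7 UMIs. The part of depth in this overlap was not tested.

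Slc17a6 followed ganglion cell markers in a few cells. Of the 20 cells with at least 2 UMIs, 17 (85.0%) had at least 3 of 10 ganglion markers, against 10.7% of cells with no transporter, and 11 of the 20 were among the 77 cells with 5 or more. Slc17a6 averaged 2.73, 2.41, 2.07 and 2.57 CPM in cells with 0, 1, 2 and 3 to 4 ganglion markers over 10 libraries, and 46.2 ± 59.6 CPM with 5 or more over 4 libraries, where the libraries ran from 5.88 to 134 CPM. Astrocyte markers were all at 0 in the 20 cells. No cell had at least 2 UMIs of Slc17a6 and of another transporter.

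**Figure D4:**
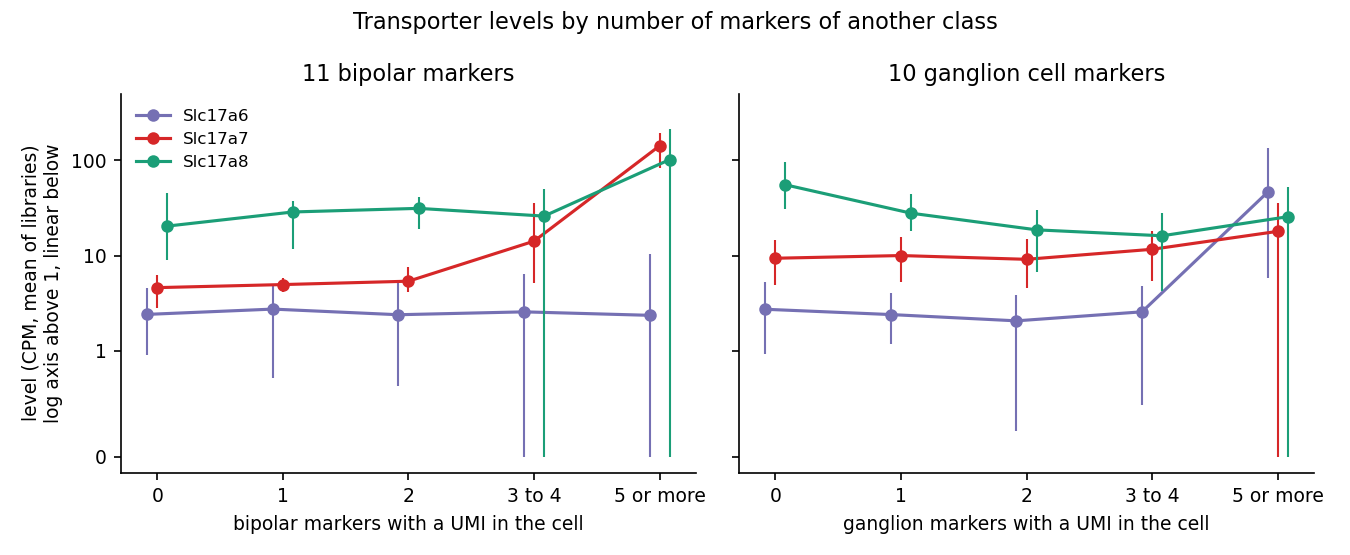
Level of each transporter by the number of bipolar (left) or ganglion (right) markers detected in a cell, in CPM on an axis that is logarithmic above 1 and linear below; points are means over libraries and vertical lines run from the lowest to the highest library. In cells with 5 or more markers, Slc17a7 averaged 141 CPM for bipolar markers and Slc17a6 averaged 46.2 CPM for ganglion markers.

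The batches differed in Slc17a6 and Slc17a7. Slc17a6 had 1.24 to 1.38 CPM in the 4 libraries of batch 3 and 2.77 to 4.63 CPM in the 5 of batch 2, with no overlap. Its means were 1.33 ± 0.06 CPM in batch 3 and 3.66 ± 0.70 CPM in batch 2, and an exact two-sided permutation test gave an adjusted p of 0.0238 over the 3 genes. Slc17a7 averaged 6.78 ± 1.01 CPM in batch 3 and 13.4 ± 1.07 CPM in batch 2, again with no overlap (exact permutation, adjusted p = 0.0238). Slc17a8 averaged 25.2 ± 4.51 CPM in batch 3 and 28 ± 3.71 CPM in batch 2 (exact permutation, adjusted p = 0.349), with the ranges overlapping. The smallest unadjusted p that these group sizes allow is 0.0159. The library of batch 1 had 2.38 CPM of Slc17a6, 6.35 CPM of Slc17a7 and 37.9 CPM of Slc17a8.

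Bipolar markers moved with the batches too, with a summed level of 241 to 275 CPM in batch 3 and 302 to 348 CPM in batch 2. Without cells with at least 3 bipolar markers, Slc17a7 averaged 4.72 ± 0.25 CPM in batch 3 and 5.24 ± 0.41 CPM in batch 2 (exact permutation, adjusted p = 0.0952), and Slc17a6 averaged 1.40 ± 0.07 CPM in batch 3 and 3.55 ± 0.55 CPM in batch 2 (adjusted p = 0.0476). Ganglion markers ran from 538 to 564 CPM in batch 3 and from 488 to 536 CPM in batch 2, the opposite order to Slc17a6, while at least 3 of them were detected in 8.25% to 11.7% of cells in batch 3 and 9.99% to 13.5% in batch 2. In the Gad gate alone all 3 transporters were lower in batch 3 than in batch 2 (exact permutation, adjusted p = 0.0159 each), with Slc17a8 at 3.14 ± 0.74 CPM in batch 3 and 4.61 ± 0.45 CPM in batch 2. In the Slc6a9 gate alone none of the 3 passed (exact permutation, adjusted p = 0.0952, 0.444 and 0.286 for Slc17a6, Slc17a7 and Slc17a8).

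**Figure D5:**
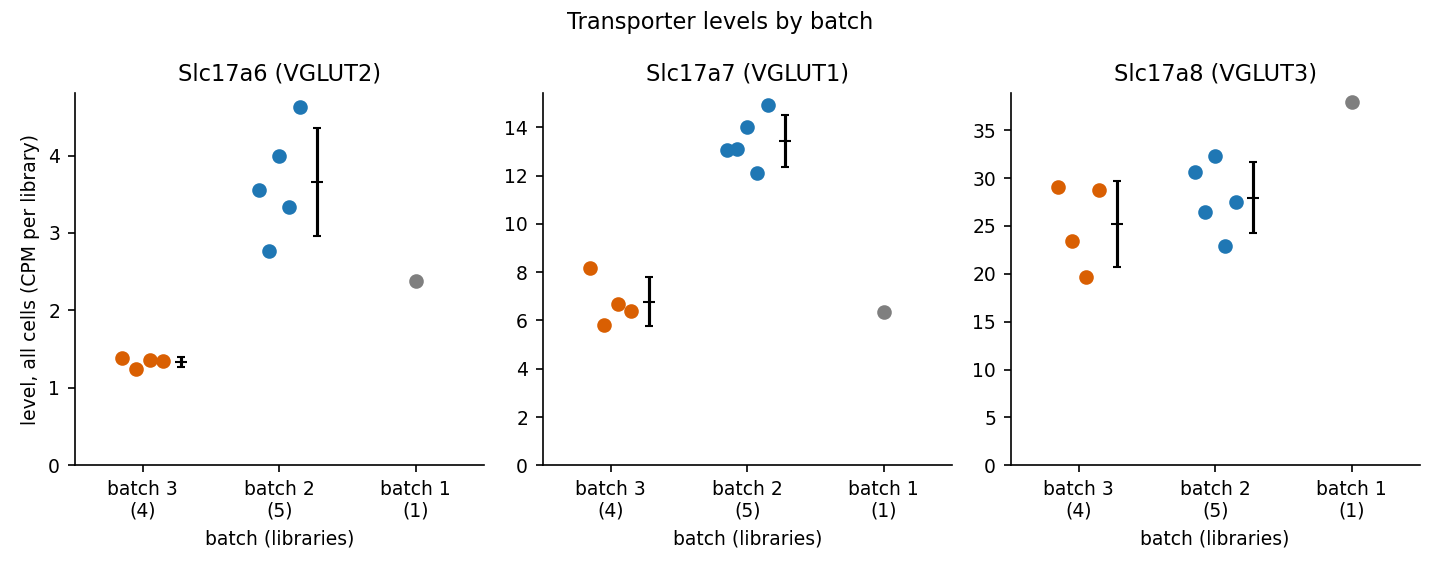
Level of each transporter over all cells of each library, in CPM, for batches 3, 2 and 1, with 1 point per library and, for batches 3 and 2, the mean with 1 SD. Slc17a6 and Slc17a7 did not overlap between batches 3 and 2, while Slc17a8 did.

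The change from the Gad to the Slc6a9 gate was compared between the batches by an interaction term, for which 7.69% of 12451 genes were called. None of the 3 transporters was called, with differences of 0.13 for Slc17a6, 0.29 for Slc17a7 and 0.05 for Slc17a8 in batch 3 minus batch 2 (adjusted p = 0.940, 0.682 and 0.946, edgeR). Within batches, Slc17a8 was higher in the Slc6a9 gate than in the Gad gate by 4.43 in batch 3 alone and by 4.39 in batch 2 alone on the log2 scale. The Slc17a7 difference of neither over Gad was 2.43 in batch 2 alone (adjusted p = 0.000533, edgeR). There the neither gate held 1, 11 and 2 Slc17a7 UMIs in libraries 2, 4 and 6, so this call leans on library 4. Over all batches without library 4 the difference was 0.92 and not called. In batch 3 the neither gate has 1 library, with 1 Slc17a7 UMI, and no difference is read from it.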

How the data were processed

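Counts of UMIs per gene and cell were deposited by the authors as 1 table of raw counts. The libraries were made with the 10x Chromium 3′ v2 kit, per the labels' protocols. Cell Ranger 2.1.0 and mm10 are named in the submitters' processing notes, while for the annotation, the cell filters and doublets the method is not given in the sources used here. All deposited cells had at least 601 genes, and 7109 genes had no count. No cell was removed and no doublet caller was run. The members and gene lists were chosen with earlier results of these data known.

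Levels are CPM of the UMIs summed over a library's cells in a gate (at least 10 cells). The sums were tested with edgeR 4.0.16 (R 4.3.3; TMM scaling, its filter on low counts, quasi-likelihood test, Benjamini-Hochberg adjustment, threshold 0.05, library as a block because the gates are cells of the same libraries). DESeq2 1.42.0 was an alternative. The edgeR steps were tested on simulated counts. Cells were clustered with scanpy 1.11.5 and leidenalg 0.10.2 (2896 variable genes without the members, 50 components, 20 neighbours, resolution 3). Binomial intervals are exact (95%), and limits for a count of 0 use 3 counts. Exact permutation tests used scipy 1.17.1. Genes named beside the members were the called list genes of largest change, at most 6 per list. For cells with a member, the 8 largest rises and 4 largest falls were also named. These were taken among called genes that reached 20 CPM and moved the same way in every library used. Some results are not reported here.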

Additional observations from a re-analysis of the deposited data

Results flagged for a closer look

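Of 24 groups of libraries examined, 5 had a library far from the others, where chance gives about 1 in 20 groups. Slc17a6 in the neither gate had 22.6 CPM in library 4, from 2 UMIs, and no UMI in the other 3, where up to 54.2 to 61.3 CPM are allowed, so that library 4 is not shown to be higher. Slc17a7 in the neither gate had 124 CPM in library 4, with 36.1 CPM in the next. Slc17a8 in the Slc6a9 gate had 263 CPM in library 1, with 140 CPM in the next, and 12.1% of that gate in library 1 was in cluster 12, the highest share. In starburst cells, library 1 had 8.23 CPM of Slc17a6, from 2 UMIs in 1 cell, with 3.84 CPM in the next, and library 2 had 108 CPM of Slc17a8, with 19.1 CPM in the next.

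The change of Slc32a1 from the Gad to the Slc6a9 gate differed between batches by 0.20 on the log2 scale, batch 3 minus batch 2 (edgeR adjusted p = 0.000248), where 7.69% of genes were called. It was -0.02 in batch 3 alone and -0.21 in batch 2 alone.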

How the results depend on the processing

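Every gate difference of Slc17a8 kept its direction under every alternative run, and kept its call except for neither minus Slc6a9 with the neither gate at 2000 UMIs (0.28). Alternatives with shared barcodes, bipolar or ganglion markers, clusters of another class, the neither gate at 2000 UMIs and no minimum of cells were chosen after seeing the data. Leaving out 1 library gave Slc17a8 4.38 to 4.67 (Slc6a9 minus Gad), 6.16 to 7.08 (neither minus Gad) and 1.53 to 2.56 (neither minus Slc6a9); Slc17a7 -0.14 to 0.075, 0.92 to 2.46 and 0.97 to 2.59; and Slc17a6 0.41 to 0.66, -6.80 to 1.66 and -7.36 to 1.19, where both neither values turn negative without library 4 because the neither libraries left have no Slc17a6 UMI, so that no direction can be read. Genes called were 6443 to 6905, 352 to 697 and 244 to 580, and the neither counts moved most without libraries 4 (371 and 244), 6 (441 and 410) and 7 (352 and 333). The Slc17a7 difference of Slc6a9 minus Gad, near 0, turned to -0.083 with DESeq2, -0.052 with no filter, -0.054 with no replicate block, -0.090 in batch 2, -0.10 with gates at 3 UMIs and -0.00498 with the neither gate at 2000 UMIs. Without the replicate block 6069, 634 and 654 genes were called, and no call of a member changed. The Slc17a7 neither values over Gad and Slc6a9 were 0.93 and 0.74 in batch 3, where 1 library with 1 UMI makes up the neither gate and no call can be read, and the calls ended without bipolar-marker cells (0.65 and 0.38), and over Slc6a9 with 4000 UMIs in all gates (2.05, adjusted p = 0.0518, edgeR). The Slc17a6 call of Slc6a9 minus Gad appeared without shared barcodes (0.59), without library 1 (0.61) and without library 2 (0.66). Genes called in neither minus Gad were 436 with DESeq2 (309 higher, 127 lower), 287 with DESeq2-type size factors (137 and 150), 432 in batch 2, 182 in batch 3, 1358 with no minimum of cells, 3515 at 2000 UMIs and 164 without bipolar-marker cells, against 671 (132 and 539). In neither minus Slc6a9 they were 404 with those size factors (249 and 155), 187 in batch 3, 1393, 2475 and 232, against 653 (183 and 470), and 591 with DESeq2 (449 and 142). The median of all genes in the neither contrasts was -0.27 and -0.28, against -0.06 and -0.05 with those size factors. For Slc17a7 cells, 1837 genes were called with DESeq2 and 234 in batch 3. Co-detection differences of Slc17a6, Slc17a7 and Slc17a8 in the Gad gate reversed to 2.14, 3.8 and 0.32 points without standardisation; to 2.61 (Slc17a6) and 3.15 (Slc17a8) after thinning; to 1.76, 0.91 and 5.10 without cells with other markers; to 0.028 (Slc17a7) and 0.27 (Slc17a8) at 2 UMIs; and to 0.071 (Slc17a7) in batch 2. In the Slc6a9 gate, Slc17a8 reached 6.98 without standardisation (exact p = 0.0332). Leaving out 1 library gave -1.72 to 0.15, -1.01 to 0.28 and -3.54 to -1.11 points in the Gad gate and -17.5 to -5.70, 1.94 to 5.37 and 1.98 to 4.28 points in the Slc6a9 gate for the same 3 genes. Batch 3 minus batch 2 was -0.53 CPM for Slc17a7 without bipolar-marker cells, -3.17 for Slc17a6 and -2.92 for Slc17a7 in the Slc6a9 gate alone, and -1.47 for Slc17a8 in the Gad gate alone. Detection moved to 0.677%, 2.18% and 0.540% in the Gad gate after thinning (Slc17a6, Slc17a7, Slc17a8), and for Slc17a7 to 3.88% (Slc6a9) and 4.86% (Gad) at 4000 UMIs. At resolution 1 the highest Slc17a7 cluster had 49.4 CPM. The cause of these changes was not tested. Not run: the neither gate without cells with markers of another class, which left too few cells, Slc17a7 cells without cells with other or bipolar markers, and Slc17a6 cells in all settings. The neither gate, with 78 cells in 10 libraries, limits every statement on it.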
